A study of Mus musculus with 6 samples.

Results

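The data cover 10 mouse genes of the hypoxia response, selected by name and found among the 55367 gene symbols of each library. *Hif1a* and *Epas1* encode the oxygen-labile subunits of hypoxia-inducible factors (HIF). *Vhl*, *Egln1* and *Egln3* belong to the machinery that marks these subunits for degradation, and *Vegfa*, *Adm*, *Bnip3*, *Car9* and *Ndrg1* are HIF target genes. When oxygen is present, EGLN enzymes hydroxylate prolines of the HIF subunits, the von Hippel-Lindau protein recognises the modified subunit, and it is degraded. When oxygen is low, the subunit persists, pairs with ARNT and activates its targets, so that HIF activity is set largely at the protein level, which RNA-seq does not measure. In the kidney, *Vegfa* is made in quantity by podocytes, *Epas1* is abundant in endothelium, and cyst growth is a setting in which HIF has been studied.

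RNA was sequenced from DBA-positive kidney cells at Day115, with 2 libraries in each of 3 groups, 6 in all. DBA is a plant lectin used to enrich collecting duct epithelium. The WT group had the WT genotype and saline, the ADPKD group had the genotype Pkd1-/- and saline, and the ADPKD+MMPP group had the genotype Pkd1-/- and the agent mmpp, a melanin-like nanoparticle that carries chelated manganese and was injected intravenously. The knockout was induced by tamoxifen in male *Pkd1*fl/fl;Cre/Esr1+ mice, and the promoter that drives Cre is not given in the sources used here. The labels describe the cells as DBA-positive but also mention RNA of the whole kidney, and do not say whether a library came from a single animal, so the p-values measure only the spread between these samples. Values are FPKM as deposited, which are reads scaled by the length of the gene and the depth of the library. FPKM multiplied by exon length fell on steps of whole reads for between 98.3% and 98.9% of values under 100 reads, with a tolerance of 0.05 reads. By these steps, depth (M reads) was 30.6 and 31.0 for the WT libraries, 33.1 and 32.1 for those of ADPKD, and only 11.8 and 10.9 after MMPP.

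The ADPKD+MMPP libraries stood apart from the rest in how their values were made. Odd read numbers made up between 38.6% and 40.2% of these low values in the WT and ADPKD libraries, but 9.26% and 8.95% in the ADPKD+MMPP libraries. This feature is found in all libraries of 1 condition and in no other, so it and the treatment cannot be told apart. Calls of the members in comparisons with the ADPKD+MMPP group, and calls of the other lists against ADPKD, are therefore given both as deposited and with gene structure taken into account.

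*Pkd1*, the targeted gene, had 17.7 and 17.2 FPKM in WT, 7.64 and 8.91 in ADPKD, and 4.34 and 3.99 in ADPKD+MMPP. The groups did not overlap, and each library labelled Pkd1-/- was below both WT libraries. On the log2 scale, *Pkd1* was lower in ADPKD than in WT, at -0.998 with a standard error of 0.13 (adjusted p = 0.00566, limma). Between ADPKD+MMPP and ADPKD its change was -0.84, and -0.18 and not called when gene structure was taken into account as described below.

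The preparations also held RNA of cells other than collecting duct principal cells. The 10 principal cell markers summed to 2097 and 2798 FPKM in WT, 2507 and 958 in ADPKD, and 5438 and 5459 in ADPKD+MMPP, with *Aqp2*, the vasopressin-regulated water channel, as the most abundant. The 14 proximal tubule markers summed to 1133 and 805 FPKM in WT, 2195 and 1587 in ADPKD, and 23049 and 21900 in ADPKD+MMPP. The most abundant gene of a list is here the gene with the highest mean FPKM over the 6 libraries. For the proximal tubule it was *Kap*, an androgen-regulated gene, through its 12822 and 12116 FPKM in ADPKD+MMPP, against 234 and 101 FPKM in WT and 509 and 64.0 FPKM in ADPKD. The proximal tubule sum was above the principal cell sum in both ADPKD+MMPP libraries and in ADPKD replicate 2, and most of it was from *Kap* and *Gpx3*, a secreted glutathione peroxidase, in the former and from *Gpx3* in the latter. *Gpx3* had 378 and 396 FPKM in WT, 1274 and 1300 in ADPKD, and 8789 and 8321 in ADPKD+MMPP. No marker of any list was at 0 in all 6 libraries. In bulk samples, fewer cells of a type and less RNA per cell cannot be told apart.

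**Figure D1:**
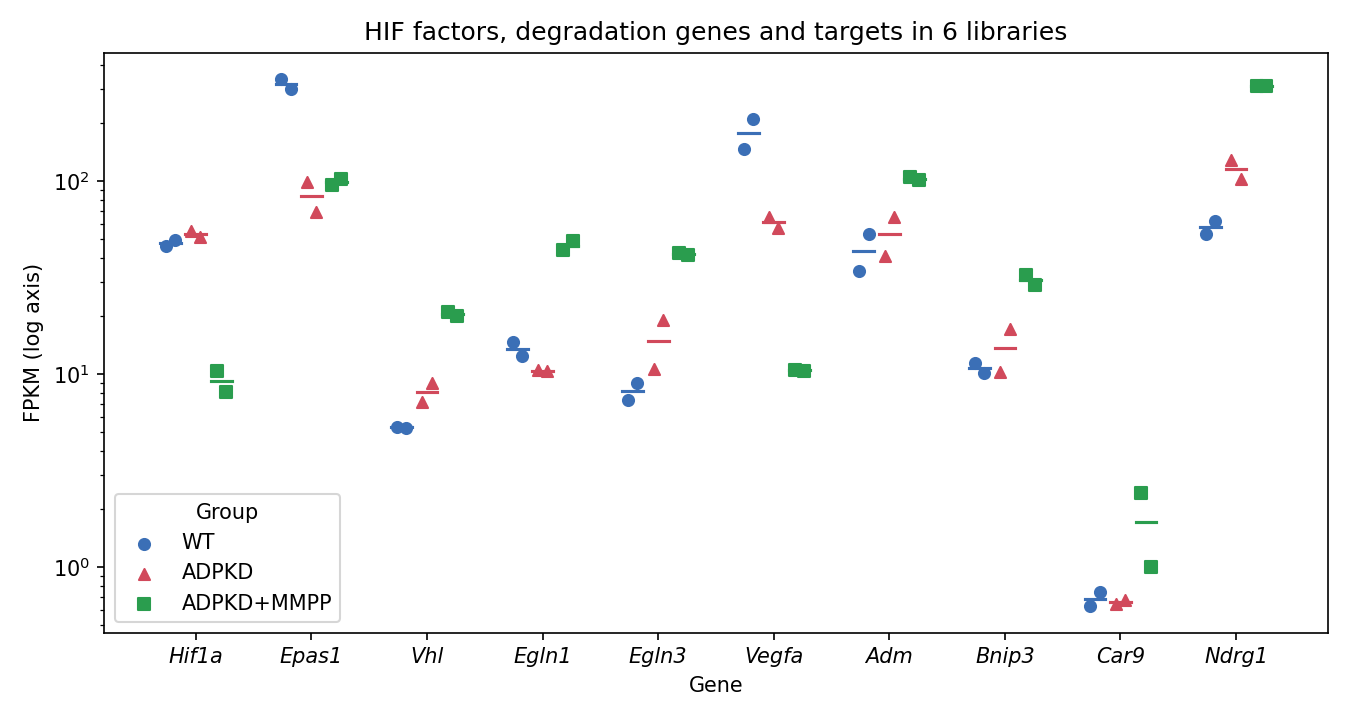
FPKM of the 10 genes on a log axis, with a point for each library and a line at the mean of each group of 2. *Epas1* and *Vegfa* are highest in WT, and *Hif1a* and *Vegfa* are lowest in ADPKD+MMPP at 8.10 to 10.5 FPKM.

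Within WT, the members fell in a clear order of FPKM, which allows comparison between genes because it is per length. *Epas1* was highest at 319 ± 25.4 FPKM (SD, n = 2), followed by *Vegfa* at 179 ± 44.0 FPKM (SD, n = 2) and *Ndrg1* at 57.8 ± 6.06 FPKM (SD, n = 2). *Hif1a* and *Adm* came next and overlapped, followed by *Egln1*, *Bnip3*, *Egln3*, *Vhl* and *Car9*, whose libraries did not overlap their neighbours in this order. In ADPKD, *Ndrg1* was first at 116 ± 18.7 FPKM (SD, n = 2), ahead of *Epas1* and *Vegfa*, *Hif1a* overlapped *Adm*, and *Egln3*, *Bnip3* and *Egln1* overlapped their neighbours. In ADPKD+MMPP, *Ndrg1* was again first at 311 ± 0.184 FPKM (SD, n = 2), and *Adm* and *Epas1* overlapped in the next places. With 2 libraries, so small an SD need not measure the spread between animals. *Vegfa* at a mean of 10.4 FPKM and *Hif1a* at 9.22 FPKM ranked directly above *Car9* at 1.71 FPKM. The order in ADPKD+MMPP holds for values as deposited only, since changes in that group followed gene structure, as described below.

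The comparison of ADPKD with WT asks how the members differ after loss of *Pkd1*. Among the factors and targets, *Epas1* and *Vegfa* were lower and *Ndrg1* and *Egln3* higher in ADPKD by the thresholds used, a fold change of at least 1.5 and an unadjusted P under 0.05 in limma on log2(FPKM + 1). Of the 10 members, 9 reached 1 FPKM in 2 or more libraries and were tested. The 2 called higher stand beside 14.2% of all 14862 tested genes, and the 2 called lower beside 12.5%. The groups did not overlap for 7 of the 9, beside 67% of all tested genes, so that this count is close to the background. The median log2 fold change was 0.27 over the tested members and 0.03 over all tested genes, but the median of the members turned to -0.0554 without ADPKD replicate 2 and was 0.59 without ADPKD replicate 1.

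*Epas1*, on chromosome 17 from 86753700 to 86833410 of GRCm38, encodes the HIF subunit that is prominent in endothelium and in the cells that make erythropoietin. It had 337 and 301 FPKM in WT against 99.2 and 69.2 FPKM in ADPKD. Both ADPKD libraries were far below both WT libraries. Its log2 fold change was -1.93 (standard error 0.19, adjusted p = 0.00375), and the ADPKD mean was 26.4% of the WT mean.

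*Hif1a*, on chromosome 12 from 73901375 to 73947530, encodes the more widely expressed subunit. It had 46.2 and 49.3 FPKM in WT and 55.5 and 51.2 FPKM in ADPKD. The ADPKD libraries were slightly above the WT libraries without overlap. Its log2 fold change of 0.16 (standard error 0.15, adjusted p = 0.478) did not pass the test.

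Of the degradation genes, *Vhl* and *Egln1* were not called in ADPKD. *Vhl*, on chromosome 6 from 113623959 to 113631633, encodes the substrate receptor of the ubiquitin ligase and had 5.31 and 5.26 FPKM in WT and 7.19 and 8.95 FPKM in ADPKD. Its log2 fold change of 0.52 (standard error 0.14, adjusted p = 0.0414) was under the fold threshold, and passed it without ADPKD replicate 1, at 0.66, and with a pseudocount of 0.1, at 0.59. *Egln1*, on chromosome 8 from 124908587 to 124949324, encodes the main prolyl hydroxylase of HIF and had 14.6 and 12.4 FPKM in WT and 10.5 and 10.3 FPKM in ADPKD. The ADPKD libraries were below the WT libraries, but the log2 fold change of -0.34 (adjusted p = 0.112) was not called.

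*Egln3*, on chromosome 12 from 54178981 to 54203860, encodes a hydroxylase that is itself a HIF target. It had 7.30 and 8.94 FPKM in WT and 10.6 and 19.0 FPKM in ADPKD, so that ADPKD replicate 2 was well above the other libraries of both groups. The log2 fold change was 0.75 (standard error 0.27, adjusted p = 0.0933), and 1.14 without ADPKD replicate 1. With all libraries it was called at the unadjusted threshold only. That call was lost in 9 of 16 alternative settings, among them without ADPKD replicate 2 (0.36), without WT replicate 1 (0.62), without WT replicate 2 (0.88), and without either ADPKD+MMPP replicate (0.75 each).

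Among the targets, *Vegfa* fell and *Ndrg1* rose in ADPKD. *Vegfa*, on chromosome 17 from 46016993 to 46032369, encodes the main growth factor of blood vessels and had 147 and 210 FPKM in WT and 65.4 and 57.3 FPKM in ADPKD. Both ADPKD libraries were far below the lower WT library, and the log2 fold change of *Vegfa* was -1.51 (standard error 0.19, adjusted p = 0.00574). *Ndrg1*, on chromosome 15 from 66929318 to 66969640, encodes a stress-responsive cytoplasmic protein and had 53.5 and 62.1 FPKM in WT and 129 and 102 FPKM in ADPKD. The groups were well separated, with a log2 fold change of 0.98 (standard error 0.16, adjusted p = 0.0104).

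The remaining targets were not called in ADPKD. *Adm*, on chromosome 7 from 110627661 to 110629820, encodes the vasodilator peptide adrenomedullin and had 34.4 and 53.0 FPKM in WT and 40.9 and 65.0 FPKM in ADPKD. These groups overlapped, and the log2 fold change was 0.27 (standard error 0.29, adjusted p = 0.528). *Bnip3*, on chromosome 7 from 138890836 to 138909519, encodes a mitochondrial protein that promotes removal of mitochondria and had 11.4 and 10.1 FPKM in WT and 10.3 and 17.2 FPKM in ADPKD. The groups overlapped here too, with a log2 fold change of 0.29 (standard error 0.24, adjusted p = 0.413), and without ADPKD replicate 1 the change was 0.63 and was called.

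*Car9*, on chromosome 4 from 43506966 to 43513729, encodes a membrane carbonic anhydrase that is a widely used HIF marker. It was the lowest member, at 0.625 and 0.743 FPKM in WT, 0.643 and 0.677 FPKM in ADPKD, and 2.43 and 0.995 FPKM in ADPKD+MMPP. These values rest on 44 and 53, 49 and 50, and 66 and 25 reads. The gene was outside the filter and was not tested in the main fit. With median ratio factors it passed the filter and was called higher in ADPKD+MMPP, at 0.76 against ADPKD and 0.72 against WT, and with no filter on low values it was 0.66 and 0.64 and not called. The difference between the ADPKD+MMPP libraries was larger than that between any others. The antisense gene *Gm12454* overlaps it and had 0.419 to 0.907 FPKM in WT and ADPKD and 1.33 and 1.44 FPKM in ADPKD+MMPP. Since the use of strand in counting is not given in the sources used here, reads of these genes cannot be told apart. *Gm15283*, antisense to *Hif1a*, was far below it, at 2.24 to 3.37 FPKM in WT and ADPKD and 0.288 and 0.467 FPKM in ADPKD+MMPP.

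The drop of *Epas1* and *Vegfa* in ADPKD came with a drop of podocyte and endothelial markers. The 5 podocyte markers summed to 900 and 1231 FPKM in WT, 205 and 90.8 in ADPKD, and 89.7 and 87.2 in ADPKD+MMPP. All 5 were called lower in ADPKD against WT, beside 12.5% of all tested genes. *Podxl*, a podocyte surface protein also found in endothelium, was the most abundant. The 8 endothelial markers summed to 1080 and 918 FPKM in WT, 579 and 572 in ADPKD, and 333 and 365 in ADPKD+MMPP. Of these, 7 were called lower and 1 higher in ADPKD, beside 12.5% and 14.2% of all tested genes. The 1 called higher was *Plvap*, a component of fenestrated capillaries and the most abundant of the list. The part of these cells in the result for *Epas1* and *Vegfa* was not tested.

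**Figure D2:**
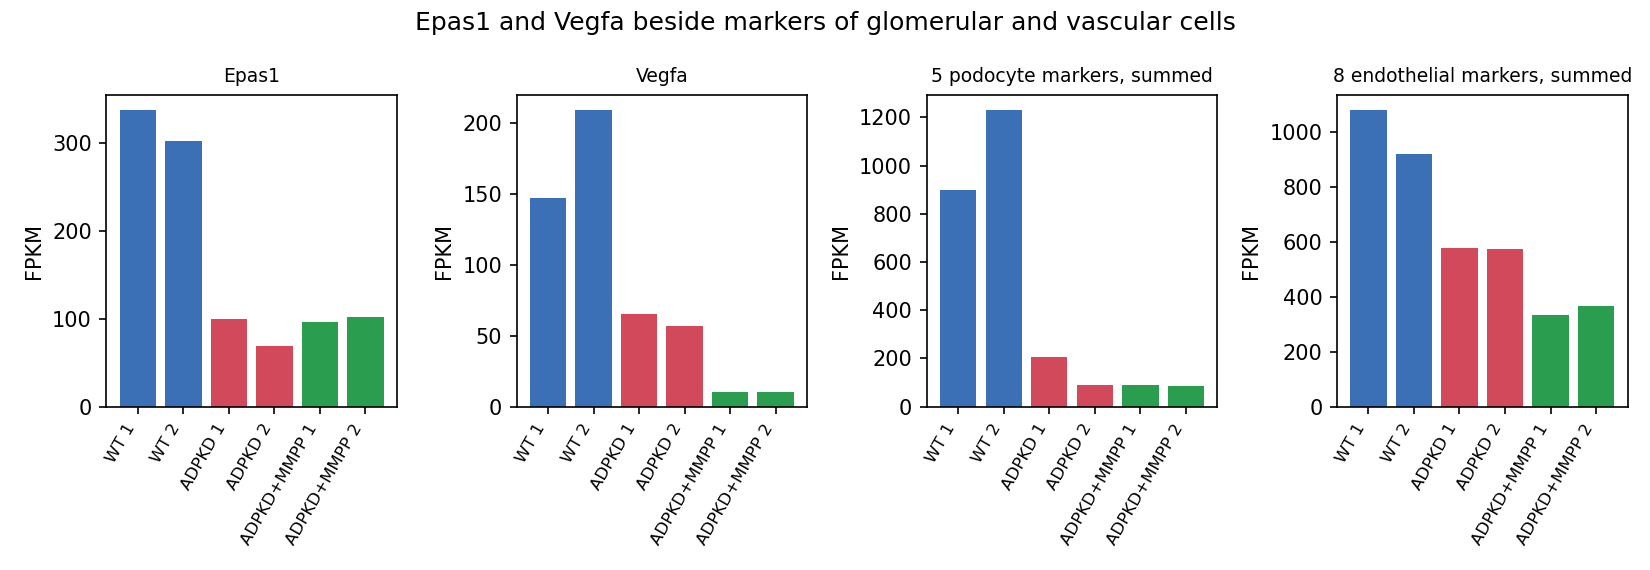
FPKM of *Epas1* and *Vegfa* and summed FPKM of 5 podocyte and 8 endothelial markers, with a bar for each of the 6 libraries. All 4 panels are highest in the WT libraries, and podocyte markers fall from 900 and 1231 FPKM in WT to 205 and 90.8 in ADPKD.

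Other cell markers moved in ADPKD as well. The counts of this paragraph stand beside 14.2% of all tested genes called higher and 12.5% called lower. All 8 intercalated cell markers were called lower, with sums of 293 and 299 FPKM in WT and 80.9 and 30.2 FPKM in ADPKD, and *Atp6v1b1*, a proton pump subunit, had the highest mean of the list over the 6 libraries. Of 8 macrophage markers, 7 were called higher and 1 lower, and their sum went from 88.6 and 86.3 FPKM in WT to 532 and 646 FPKM in ADPKD, led in abundance by *Lyz2*. Of 7 thick limb and distal tubule markers, 4 were called lower, and of 8 fibroblast and mural cell markers 4 were called higher and 1 lower. Of 9 tested principal cell markers 1 was called higher, of 14 proximal tubule markers 4 were called higher and 1 lower, and neither of the 2 tested erythroid markers was called. Of 12 genes of dissociation and heat shock, 8 were called lower, and their sum was 11699 and 12262 FPKM in WT and 7129 and 5244 FPKM in ADPKD. The part of these cells and of dissociation in the changes of the members was not tested.

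Other genes of the pathway were counted in the same way, beside the 14.2% called higher and 12.5% called lower of all tested genes. Of 14 tested genes of the HIF machinery, 0 were called higher and 1 lower in limma, *P4htm*, a transmembrane prolyl hydroxylase, which had 4.14 and 4.31 FPKM in WT and 1.56 and 1.59 FPKM in ADPKD. Of 20 glycolytic HIF targets, 6 were called higher and 0 lower, with a median log2 fold change of 0.34 beside 0.03 over all tested genes. The highest was *Hk2*, a hexokinase, with 2.12 and 2.78 FPKM in WT and 27.6 and 91.1 FPKM in ADPKD, and the glucose transporter *Slc2a1*, which has the highest mean of the list over the 6 libraries, had 130 and 138 FPKM in WT and 212 and 223 FPKM in ADPKD. Of 36 tested other HIF targets, 8 were called higher and 6 lower, with a median of 0.003. The extremes were *Lox*, a collagen cross-linking enzyme, with 1.44 and 1.37 FPKM in WT and 7.47 and 43.9 FPKM in ADPKD, and *Car12*, another carbonic anhydrase, with 31.8 and 33.7 FPKM in WT and 19.5 and 5.37 FPKM in ADPKD. *Hk2*, *Lox* and *Car12* thus differed severalfold between the ADPKD libraries.

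Genes that act with *Vegfa* and *Adm* moved both ways in ADPKD. Of 15 ligands, receptors and coreceptors, 3 were called higher and 5 lower. *Pgf*, a ligand of the VEGF family, had the highest change, from 2.99 and 1.40 FPKM in WT to 10.7 and 19.0 FPKM in ADPKD, and *Nrp1*, a VEGF coreceptor, the lowest, from 92.9 and 74.5 FPKM to 25.5 and 8.44 FPKM. *Kdr*, the main VEGF receptor and also 1 of the endothelial markers, was the most abundant and went from 161 and 123 FPKM to 44.9 and 20.7 FPKM. The NDRG paralogs did not share the rise of *Ndrg1*: 0 of 3 were called higher and 2 lower, and *Ndrg2* had 18.5 and 15.4 FPKM in WT and 6.19 and 5.80 FPKM in ADPKD.

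The comparison of ADPKD+MMPP with ADPKD asks how the members differ after treatment. As deposited, *Vhl*, *Egln1*, *Egln3*, *Adm*, *Bnip3* and *Ndrg1* were called higher, *Hif1a* and *Vegfa* were called lower, and *Epas1* was not called. The 6 called higher of 9 stand beside 27.9% of all tested genes, the 2 called lower beside 43%, and the 8 whose groups did not overlap beside 87.8%. The median log2 fold change was 1.15 over the tested members and -0.36 over all tested genes, and with the centring by structure described below 0.33 over the members and 0.15 over the protein-coding genes. The scaling moved the median over all tested genes to -0.56 with a common sum, -0.20 with median ratio factors and 0.10 with quantile normalization, and 54.0% of all calls were higher with quantile normalization against 39.3% as deposited.

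Among the tested members, those called higher and lower differed in gene structure. *Hif1a* has 20.6% and *Vegfa* 9.75% of their exon bases in exactly 1 annotated transcript, whereas the tested members that were higher have between 72.1% and 100%. *Car9*, not tested in the main fit, has 15.8%, and its mean was 259% of that in ADPKD. That mean is from ADPKD+MMPP libraries far apart, at 2.43 and 0.995 FPKM. A relation of change to share was seen across the 12375 tested protein-coding genes. The median log2 fold change after treatment was -1.53 for the 2375 genes with a share under 25%, and 0.99 for the 3302 genes with a share of 75% or more. In ADPKD against WT these medians were -0.01 and 0.05.

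**Figure D3:**
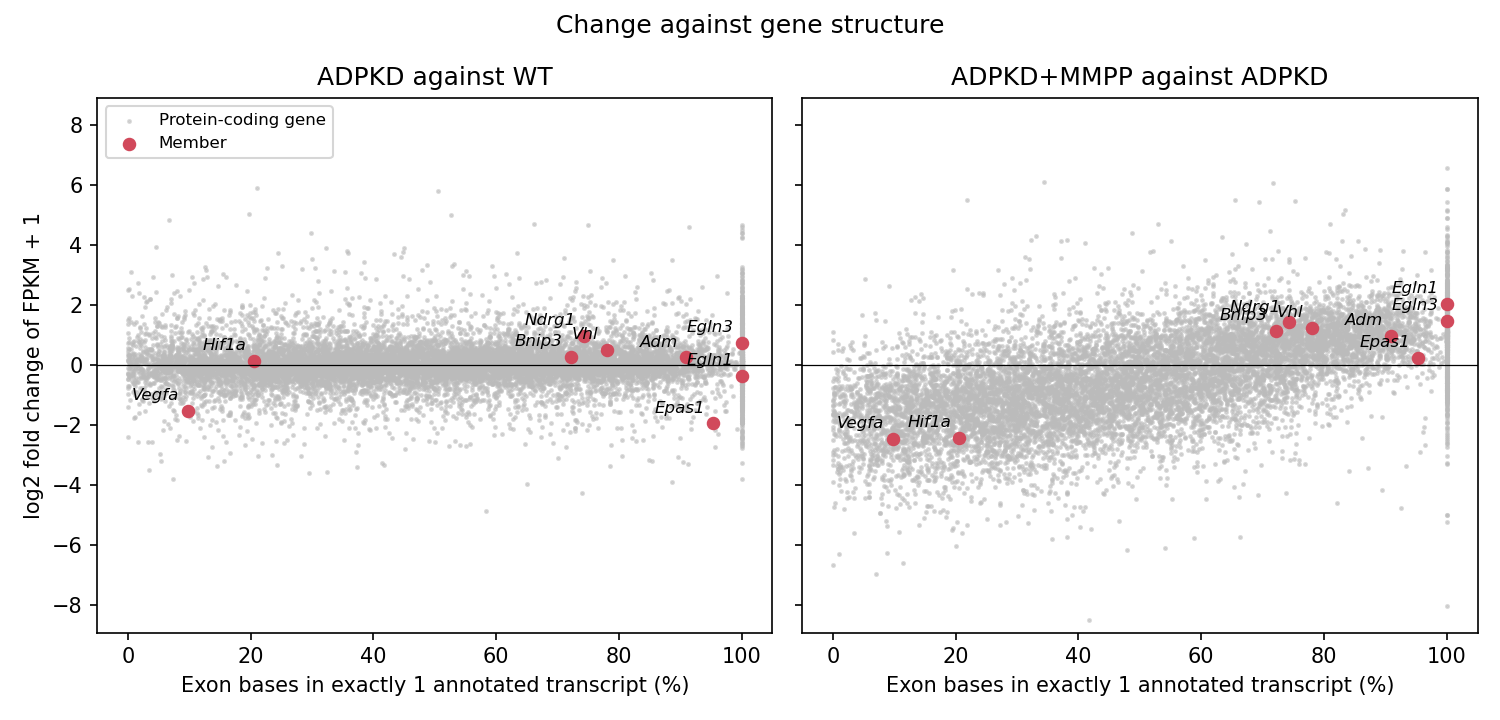
Log2 fold change of FPKM + 1 against the share of exon bases in exactly 1 annotated transcript, for 12375 protein-coding genes (grey) and the 9 tested members (red), in ADPKD against WT and in ADPKD+MMPP against ADPKD. Changes rise with the share in the comparison with treatment, where *Vegfa* and *Hif1a* lie at the low and *Egln1* at the high end.

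*Hif1a* had 10.3 and 8.10 FPKM in ADPKD+MMPP, below all WT and ADPKD libraries. Against ADPKD its log2 fold change was -2.42 (standard error 0.15, adjusted p = 6.3e-05), and the mean was 17.3% of that in ADPKD. Protein-coding genes of a like share had a median of -1.35. Genes were also placed in 20 bins of this share and the median of its bin subtracted from each gene, library by library, which is called centring by structure here. This takes off the median level of a bin, whose change need not equal the median change of its genes, so another form was tried, chosen after seeing the data. There, the median deviation of the genes of a bin from their own means was subtracted instead, which is called centring the change. Centred by structure, *Hif1a* was -0.64, and with the change centred -0.99, called lower in both.

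*Epas1* had 95.9 and 102 FPKM in ADPKD+MMPP, overlapping the 99.2 and 69.2 FPKM of ADPKD. A log2 fold change of 0.25 (standard error 0.19, adjusted p = 0.275) was not called, although genes of a like share had a median of 1.06. Centred by structure, the change turned to -0.82 and was called lower.

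The degradation genes had higher FPKM in ADPKD+MMPP. *Egln1* had 44.0 and 48.8 FPKM, above all other libraries, with a log2 fold change of 2.05 (standard error 0.13, adjusted p = 7.01e-05). Centred by structure it was 0.89 and still called. *Egln3* had 42.3 and 41.4 FPKM, with a log2 fold change of 1.49 (standard error 0.27, adjusted p = 0.00319) that was 0.33 when centred and no longer called. *Vhl* had 20.9 and 19.9 FPKM, with a log2 fold change of 1.25 (standard error 0.14, adjusted p = 0.000448) that was 0.44 when centred, under the fold threshold.

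Among the targets, *Vegfa* had 10.5 and 10.4 FPKM in ADPKD+MMPP, far below the ADPKD libraries. Its log2 fold change of -2.44 (standard error 0.19, adjusted p = 0.000133) stands beside a median of -1.64 for genes of a like share, and was -0.51 when centred by structure, under the fold threshold, but -0.81 and called lower with the change centred. *Ndrg1* had 311 and 310 FPKM, the highest of any member in this group. Its log2 fold change of 1.43 (standard error 0.16, adjusted p = 0.000454) was 1.01 when centred by structure and 0.86 with the change centred, called in both. Among genes with at least 70% of exon bases in 1 transcript, with their median subtracted from each library, *Ndrg1* was 0.52 and not called.

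*Bnip3* had 32.5 and 28.9 FPKM in ADPKD+MMPP, above all WT and ADPKD libraries. Its log2 fold change was 1.15 (standard error 0.24, adjusted p = 0.00605), and 0.73 when centred by structure, still called, but 0.58 with the change centred, just under the fold threshold. *Adm* had 105 and 102 FPKM, with a log2 fold change of 0.99 (standard error 0.29, adjusted p = 0.0214) that turned to -0.0876 when centred and was not called. The *Adm* call was also lost with a common sum (0.68), with quantile normalization (0.69), without ADPKD replicate 1 (0.66), without ADPKD+MMPP replicate 1 (0.97) and without ADPKD+MMPP replicate 2 (1.01).

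Centred by structure, 3 members were called higher, *Egln1*, *Bnip3* and *Ndrg1*, beside 33.7% of the protein-coding genes, and 2 lower, *Hif1a* and *Epas1*, beside 24.5%. Another alternative, chosen after seeing the data, was limited to protein-coding genes with at least 70% of exon bases in 1 transcript. It also subtracted the median of these genes from each library, which moves all of their changes by the same amount. There 7 members could be tested, and *Egln1* was called higher (1.15) and *Epas1* lower (-0.65). The 2 of 7 members called there stand beside 48.8% of these genes, and the 2 called in ADPKD against WT beside 28.7% and the 5 in ADPKD+MMPP against WT beside 56.2%. With the change centred, *Egln1* and *Ndrg1* were called higher, beside 27.4%, and *Hif1a*, *Epas1* and *Vegfa* lower, beside 29.6%. *Egln1* and *Epas1* were thus called under all of these alternatives. *Hif1a* was called lower under each that could test it, since it and *Vegfa* have too low a share for the limit of 70%. The calls of *Vegfa*, *Bnip3* and *Ndrg1* depend on how structure is taken into account. Centring removes differences that genes of a like structure share, and whether these come from the treatment or from how the values were made cannot be told apart.

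Calls for other genes of the pathway also moved with centring after treatment. The counts of this and the next paragraphs stand beside 27.9% of all tested genes called higher and 43% called lower as deposited, and 33.7% and 24.5% of the protein-coding genes when centred. Centred here means centred by structure, which takes off the median level of a bin. The lists are not given with the change centred, so calls that turned may depend on the form of centring. Of 14 tested genes of the HIF machinery, 4 were called higher and 5 lower as deposited, and 6 higher and 1 lower when centred. *Arnt*, the partner subunit of *Hif1a* and *Epas1*, had the lowest change, from 12.8 and 14.0 FPKM in ADPKD to 1.25 and 0.870 FPKM, and remained lower when centred at -1.62. *Rbx1*, the RING subunit of the ligase that holds *Vhl*, had the highest, from 11.2 and 10.4 FPKM to 27.2 and 27.1 FPKM, and was 0.84 when centred and called. The most abundant gene of this list was *Cited2*, a negative regulator of HIF, which was called lower at -1.06 (adjusted p = 0.0107) and called higher at 0.72 when centred. Genes of a like share had a median change of -1.35 as deposited, so the call of *Cited2* when centred may depend on the form.

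Among HIF targets outside the members, more genes were called lower than higher in ADPKD+MMPP as deposited, as among all tested genes. Of 20 glycolytic targets, 3 were called higher and 13 lower, and of the 19 that could be centred 4 were higher and 8 lower. *Ldha*, which encodes a lactate dehydrogenase subunit, fell from 145 and 137 FPKM in ADPKD to 1.69 and 1.66 FPKM, and remained lower when centred at -4.54. *Pgam1*, a phosphoglycerate mutase, went from 85.4 and 73.5 FPKM to 308 and 319 FPKM, and was 1.95 when centred and called higher. Glycolytic genes have processed pseudogenes that can share their reads, which was not tested, so these values are uncertain. Of 36 other HIF targets, 4 were called higher and 18 lower as deposited, and 8 higher and 9 lower when centred. As deposited, *Ero1l*, an oxidase of the endoplasmic reticulum, was highest at 1.35 and *Lox* lowest at -3.31. When centred these were 0.54 and -1.20, neither called. The most abundant of these, *Hmox1*, which encodes a haem oxygenase, had 267 and 712 FPKM in ADPKD and 381 and 376 FPKM in ADPKD+MMPP and was not called.

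Of the 15 genes that act with *Vegfa* and *Adm*, 3 were called higher and 7 lower after treatment, and 2 higher and 9 lower when centred. *Ackr3*, a scavenger receptor reported to bind adrenomedullin, had the highest change, from 24.2 and 17.5 FPKM in ADPKD to 62.5 and 60.4 FPKM, and *Pgf* the lowest, from 10.7 and 19.0 FPKM to 0.0583 and 0.316 FPKM. When centred, *Ackr3* was 0.46 and not called, and *Pgf* was -2.81 and called lower. Among NDRG paralogs, 0 were called higher and 2 lower as deposited, and 0 in either direction when centred.

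Cell markers also moved between ADPKD and ADPKD+MMPP, by counts that changed with centring. Of 14 proximal tubule markers, 10 were called higher and 0 lower as deposited, and 13 higher and 0 lower when centred. All 8 intercalated cell markers were called higher either way, and their sum was 261 and 272 FPKM. Of 5 podocyte markers 3 were called lower, and 4 when centred, and of 8 endothelial markers 4 were called lower, and 7 when centred, with 0 called higher in both lists. Of 7 thick limb and distal tubule markers, 3 were called higher and 1 lower as deposited, and 6 and 0 when centred. Principal cell markers were called higher for 4 and lower for 3 of 9, and for 1 and 1 when centred. Macrophage markers were called higher for 4 and lower for 3 of 8, and for 2 and 2 when centred, and fibroblast and mural cell markers for 4 and 3 of 8, and for 2 and 3 when centred. Genes of dissociation and heat shock were called higher for 6 and lower for 5 of 12, and for 6 and 2 when centred, and erythroid markers for 1 and 1 of 2, and for 1 and 0 when centred. Their part in the changes of the members was not tested.

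The comparison of ADPKD+MMPP with WT shares its libraries with the others. All 9 tested members were called. The 6 higher were those called higher against ADPKD and stand beside 30.1% of tested genes, the 3 lower were *Hif1a*, *Epas1* and *Vegfa* and stand beside 43.8%, and the groups of all 9 did not overlap, beside 91.9%. The largest changes were those of *Vegfa* at -3.95 (standard error 0.19, adjusted p = 2.81e-05) and *Ndrg1* at 2.41 (standard error 0.16, adjusted p = 6.27e-05). Centred by structure, 4 were called higher, *Vhl*, *Egln3*, *Bnip3* and *Ndrg1*, beside 35.8%, and 2 lower, *Epas1* and *Vegfa*, beside 26.8%. When centred, *Ndrg1* was 1.95, *Epas1* -2.88 and *Vegfa* -1.99, whereas *Hif1a* was -0.33 and was not called. With the change centred, the same 4 were called higher, beside 30.4%, and 3 lower, beside 31.5%, as *Hif1a* was -0.78 and called. The comparison was also limited to genes with at least 70% of exon bases in 1 transcript, with their median subtracted from each library. There *Vhl*, *Egln1*, *Egln3* and *Ndrg1* were called higher and *Epas1* lower, with *Egln1* at 0.74 and *Bnip3* at 0.47 and not called.

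HIF binds DNA at the core letters ACGTG or GCGTG. Both were searched on either strand, as CACGT and CACGC on the reverse, in the 300 bases around the gene starts given by RefSeq for GRCm38.p6. Of the 10 members, 8 had at least 1 entry, with 9 entries in all, and *Epas1* and *Ndrg1* are named only. ACGTG was found in 6 of the 9 entries and in 19.6% of all 32851 entries of this length, and GCGTG in 4 and in 32.4%. *Vegfa* has 2 entries, of which that at its annotated start holds neither motif and that inside the gene, from 46025114 to 46025413, holds both. The only entry of *Hif1a*, from 73907617 to 73907916, also lies inside the gene as annotated and holds 3 ACGTG. The letters CACGTG hold ACGTG on both strands and count for each. The promoters of the members called higher after treatment as deposited and when centred by structure are shown, where an entry exists, with the motifs in capitals.
Egln1 promoter (chr8:124949205-124949504, minus strand, 5′ to 3′): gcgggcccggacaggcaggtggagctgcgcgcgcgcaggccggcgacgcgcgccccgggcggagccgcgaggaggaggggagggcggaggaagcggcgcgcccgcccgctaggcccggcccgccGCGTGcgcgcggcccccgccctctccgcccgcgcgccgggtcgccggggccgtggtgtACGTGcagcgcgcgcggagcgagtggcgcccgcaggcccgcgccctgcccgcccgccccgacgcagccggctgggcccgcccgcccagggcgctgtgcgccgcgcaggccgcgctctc
Bnip3 promoter (chr7:138909457-138909756, minus strand, 5′ to 3′): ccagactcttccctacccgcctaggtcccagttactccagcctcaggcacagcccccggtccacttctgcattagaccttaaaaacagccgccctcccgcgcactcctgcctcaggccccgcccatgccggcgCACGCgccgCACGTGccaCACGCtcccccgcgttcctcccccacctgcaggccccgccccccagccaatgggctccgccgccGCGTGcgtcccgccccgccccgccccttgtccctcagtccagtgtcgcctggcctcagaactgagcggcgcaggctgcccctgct

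*Egln1* holds 1 ACGTG and 1 GCGTG, and *Bnip3* holds 2 of the former, in a shared CACGTG, and 3 of the latter. *Vhl* had neither in its window. A match describes letters only, and no binding was measured.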

How the data were processed

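RNA-seq of 6 libraries was used. The authors aligned reads to mm10 with HISAT2 2.1.0, counted them with featureCounts 1.6.0 and deposited FPKM for each library; the annotation release and the step from counts to FPKM are not given in the sources used here. Gene positions and exon structure came from GENCODE vM21, in which 53186 symbols matched 1 gene. After a filter that asked for 1 FPKM in 2 or more libraries, 14862 genes were left. Their values, as log2 of FPKM plus a pseudocount of 1, entered a single limma fit over the 6 libraries (limma 3.58.1, R 4.3.3), and p-values were adjusted by Benjamini-Hochberg over all of them. The pseudocount understates changes of genes with low FPKM. The test was checked on simulated data. Alternatives covered scaling, pseudocount, filter, variance trend, groups in the fit, a replicate block, thresholds, leaving out each library, and centring levels or changes within 20 bins of exon structure over protein-coding genes. The 10 members are named with every value, and of each list the tested genes with the highest and lowest change and the most abundant gene. Members and lists were chosen with earlier results of these data known. Counting error at 10.9 to 33.1 M reads was not modelled.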

Additional observations from a re-analysis of the deposited data

How the results depend on the processing

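The count of members called in ADPKD against WT was 4, beside 14.2% of all tested genes called higher and 12.5% lower. It was 2 with a fold change of at least 2. In ADPKD+MMPP against ADPKD it was 8, beside 27.9% called higher and 43% lower. Centred by structure it was 5 there, beside 33.7% and 24.5% of the protein-coding genes. A further setting, chosen after seeing the data, was limited to genes with at least 70% of exon bases in 1 transcript, with their median subtracted. There the count was 2 in ADPKD against WT, beside 28.7% of all genes there. It was 2 in ADPKD+MMPP against ADPKD, beside 48.8%, and 5 in ADPKD+MMPP against WT, beside 56.2%. Only 7 members can be tested there, and ADPKD+MMPP against WT gave 9 as deposited, beside 30.1% called higher and 43.8% lower. Over all genes, 3970, 10540 and 10984 were called in these comparisons, in this order, and 2040, 5976 and 6161 with FPKM of at least 1 in all libraries, where fewer genes are tested. A fold change of at least 2 left 1951 in ADPKD against WT. With the replicate block the counts, in the same order, were 4, 8 and 9 members and 4055, 10595 and 11038 genes. The labels do not say whether the replicate numbers pair the samples. Deviations of same-numbered libraries correlated at 0.13, -0.01 and 0.01 between groups, which cannot decide this with 2 libraries a group.

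The sign of some changes turned. In ADPKD+MMPP against ADPKD, *Epas1* was -0.0523 with a common sum, -0.0364 with quantile normalization, -0.82 when centred by structure and -0.833 with the change centred. It was -0.65 among genes with at least 70% of exon bases in 1 transcript with their median subtracted, and from -0.00344 to 0.51 when leaving out a library. *Adm* was -0.0876 when centred and -0.0991 with the change centred, also chosen after seeing the data. In ADPKD against WT, leaving out a library gave *Adm* from -0.0612 to 0.59 and *Bnip3* from -0.0554 to 0.63, neither called with all libraries. The cause was not tested. Leaving out a library leaves a group with 1 sample, which is assumed to vary like the others. *Car9* rests on at most 66 reads in any library, so its level is uncertain, and counting error was not modelled.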
